A study of Equus caballus with 22 samples.

Results

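The genes described here carry several RNA 3′ ends spaced on the scale of a 3′ untranslated region (UTR), and the regions are the individual 3′ end sites of those genes. In each tissue's table, a site was kept when it had at least 10 counts in at least 50% of the libraries and lay on chromosomes 1 to 31. A gene and its kept sites were included when at least 2 kept sites together spanned more than 500 and at most 5000 nt, from the smallest start to the largest end. In cartilage this gave 2694 sites in 1137 genes, which was 39.8% of the 2854 genes with at least 2 kept sites. In synovium it gave 5331 sites in 2115 genes, which was 41.3% of 5116 such genes. The 2 tables list 138134 and 262643 sites in all, of which 12266 and 21056 were kept on these chromosomes. Counts chose the sites and coordinates chose the genes, so the number of sites, their spacing and their minimum level are a description of the selection.

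A 3′ end forms where the nascent RNA is cleaved and a poly(A) tail is added. A gene with several such sites can make messages that share their coding sequence and differ in the length of the 3′ UTR (alternative polyadenylation). A longer 3′ UTR carries more binding sites for microRNAs and RNA-binding proteins, which act on the stability, translation and location of the message. Ends far apart can also lie in different last exons or introns. No gene annotation of this build was used here, so whether the sites of a gene share 1 UTR, and whether each is exonic, intronic or in a UTR, could not be checked, and the name UTR-scale refers to the spacing alone.

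The tissues were horse articular cartilage and synovium, the lining of the joint capsule, both from the metacarpophalangeal (fetlock) joint. There were 6 young and 6 old cartilage libraries and 5 young and 5 old synovium libraries, with total counts of 2132898 to 3167402 and 3499770 to 5664167 per library. Every sample carries the genotype label WT, batch 1 and a treatment label naming 4sU, a uridine analogue used to label new RNA. That label conflicts with snap-frozen tissue and cannot separate any groups. Ages are given as young or old only, and the labels do not state whether samples are separate animals or whether both tissues came from the same animals, so p-values measure the spread between these samples. The files give Ensembl gene identifiers without symbols, so genes are named by identifier and neither their functions nor the cell type markers of the tissues could be read. In bulk tissue, fewer cells of a type and less RNA per cell cannot be told apart.

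The selected genes mostly had 2 ends. In cartilage, 806 genes (70.9%) had 2 kept sites, 255 had 3, 66 had 4 and 10 had 5 or 6. In synovium, 1337 genes (63.2%) had 2 kept sites, 544 had 3, 172 had 4 and 62 had 5 to 8. Among genes spanning more than 5000 nt, 41.3% in cartilage and 31.2% in synovium had 2 sites. The median span of the selected genes was 1639 nt in cartilage (interquartile range 948 to 2689) and 1808 nt in synovium (1098 to 2877). The median gap between neighbouring sites was 781 nt and 696.5 nt. Some neighbours nearly touched, with gaps of at most 25 nt in 52 of 1557 cartilage pairs (3.34%) and 154 of 3216 synovium pairs (4.79%). Whether such pairs are separate ends was not tested. The sites had a median length of 127 nt in cartilage and 170 nt in synovium. The genes lay on all 31 chromosomes, with 50.0% and 48.9% on the plus strand.

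**Figure D1:**
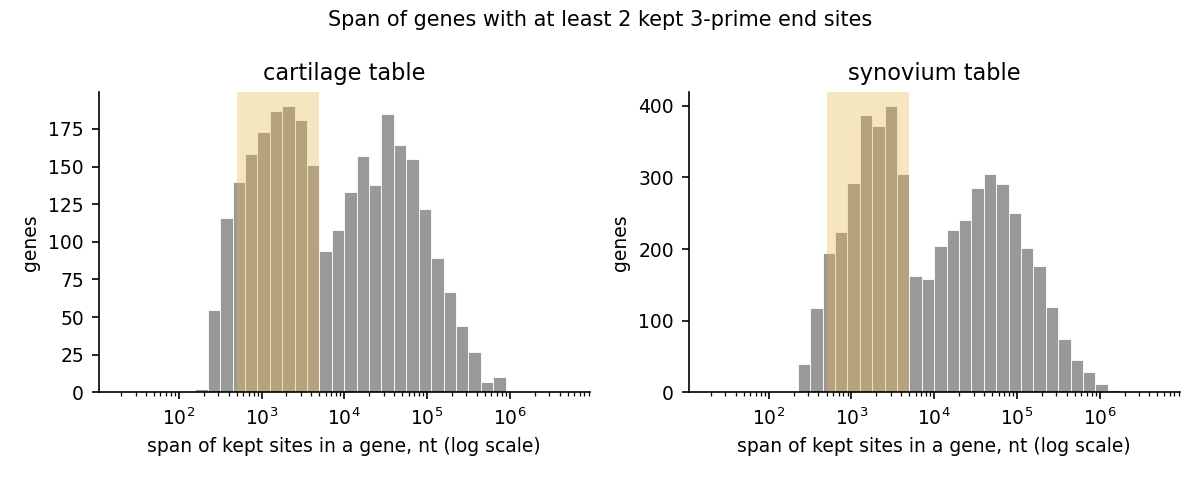
Number of genes (y axis) by the span of their kept sites in nt (x axis, log scale) in cartilage and synovium, for genes with at least 2 kept sites, with the bounds of the selection marked. Genes are fewer just above 5000 nt than on either side, in both tissues.

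The upper bound fell in a natural dip of the span distribution. In the bins of the plot of spans, cartilage gene numbers fell from a peak of 190 to 94 just above 5000 nt and returned to 185 at longer spans, and synovium went from 399 to 158 and back to 305. The lower bound cut through a continuous distribution. The cartilage genes next to the bounds spanned 507 and 508 nt inside and 500 nt outside at the lower end, and 4988 and 4973 nt inside and 5012 and 5059 nt outside at the upper end. Their mean distal shares, the percentage of a gene's kept counts at its most distal site, were 77.9% and 59.1% inside and 61.2% and 50.4% outside at the lower bound, and 20.5% and 20.4% inside and 12.7% and 73.0% outside at the upper bound. In synovium the narrowest selected genes spanned 1 nt over the bound and 502 nt, against 500 nt outside, and 4972 and 4969 nt inside and 5005 and 5012 nt outside at the upper bound. Their distal shares were 17.6% and 90.9% inside and 7.64% and 3.60% outside at the lower bound, and 59.1% and 88.4% inside and 78.7% and 4.66% outside at the upper bound.

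The kept sites held most of the signal of these genes. They carried 94.7% of the counts of the 1137 cartilage genes, which list 12733 sites in all, and 97.5% of the counts of the 2115 synovium genes, which list 33781. These kept sites made up 22.8% of all cartilage counts and 29.6% of all synovium counts. Detection differed between the tables, with counts in every library at 950 of the cartilage sites (35.3%) and 4919 of the synovium sites (92.3%). Few sites depended on 1 age to be kept, since 1 cartilage site passed through the young libraries alone and 0 through the old alone, against 3 and 2 in synovium.

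The position of the strongest site varied between genes. The strongest site was that with the highest mean, over the libraries, of counts scaled to the library total. It was the proximal site in 564 cartilage genes (49.6%), the distal site in 446 (39.2%) and an internal site in 127 (11.2%). In synovium the same counts were 970 (45.9%), 849 (40.1%) and 296 (14.0%). Shares were more extreme in synovium, where the mean distal share was under 10% in 454 genes (21.5%) and over 90% in 203 (9.60%), against 153 (13.5%) and 56 (4.93%) in cartilage. Between 25% and 75% lay 577 cartilage genes (50.7%) and 785 synovium genes (37.1%). Among genes with at least 10 kept counts in every library, the same site was strongest in every library for 333 of 778 cartilage genes (42.8%) and 1430 of 2051 synovium genes (69.7%).

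The median distal share was smaller in genes with more sites, and smaller in the highest than in the lowest quartile of counts. The sites of a gene divide its counts, so their average share falls with their number. That part of the order is fixed in advance. The median distal share was 44.5% in cartilage and 45.3% in synovium for genes with 2 sites, 20.5% and 25% with 3, 16.3% and 12.5% with 4, and 10.4% and 6.71% with 5 or more. Across quartiles of gene counts, cartilage went from 47.9% in the lowest to 18.0% in the highest, and synovium from 43.9% to 16.1%. The quartiles differ in site number. In cartilage 266 of 285 genes had 2 sites in the lowest and 148 of 284 in the highest, and in synovium 439 of 529 and 278 of 529. Among 2-site genes alone, the highest quartile was at 23.7% and 28.8% and the lowest at 50.0% and 48.3%. The middle quartiles, lower first, were at 47.6% and 42.4% in cartilage and 44.1% and 46.9% in synovium, so synovium showed no steady fall. Each site needed 10 counts to be kept, which bars the smallest shares in genes with few counts, and the part of this in the order was not tested. In 3-site genes the medians of the 3 positions lay close together in synovium, at 21.7% to 25.6% per library for the proximal site, 20.7% to 24.4% for the middle and 21.8% to 28.2% for the distal. In cartilage the proximal site was at 26.1% to 34.7%, the middle at 19.0% to 30.8% and the distal at 11.7% to 23.2%.

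The error of a distal share depended on the counts behind it. The median standard deviation (SD) within an age group was 18.1 percentage points over the 1137 cartilage genes and 6.07 over the 2115 synovium genes. Among the 778 and 2051 genes with at least 10 kept counts in every library it was 13.4 and 5.88 points. Over all selected genes it was 31.5 points in the lowest and 6.73 in the highest quartile of counts in cartilage, and 12.6 and 2.12 points in synovium.

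The genes with the most counts used 1 end almost exclusively. In cartilage, ENSECAG00000018633 on chromosome 15 (plus strand) held 511299 counts, 1.69% of the table. Its distal site at chr15:3766372-3766605 took 99.6% ± 0.260 of them in the young libraries and 99.9% ± 0.192 in the old (SD, n = 6), and its level was 16273 ± 9144 and 18465 ± 7892 CPM (counts scaled to the library size). In the next, ENSECAG00000026813 on chromosome 16 (plus strand, 286136 counts), the middle of 3 sites at chr16:46755077-46755368 held 99.4% of the counts in young and 99.5% in old cartilage, and the distal site 0.502% ± 0.190 and 0.345% ± 0.034. Synovium showed the same kinds of gene. ENSECAG00000020363 on chromosome 10 (987654 counts, 2.34% of the table) had a distal share of 99.6% ± 0.089 in young and 99.5% ± 0.077 in old (n = 5), and ENSECAG00000011541 on chromosome 7 (290511 counts) had 0.390% ± 0.116 and 0.484% ± 0.300.

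The first comparison asked whether the choice of 3′ end differed with age. In cartilage, the median distal share over the 1137 genes was 34.1%, 34.9% and 38.1% in the lowest, median and highest young library and 25.7%, 34.2% and 37.1% in the old. The group means were 35.5% ± 1.49 and 33.4% ± 4.06 (SD, n = 6), and the ages overlapped. The low value belonged to old cartilage 2, where 59.7% of the sites had counts and the distal site was at 0 in 44.4% of the genes. The difference of old minus young was -2.16 points with that library and -0.638 without it. Averaged over genes, the distal share differed by -0.104 points, and by 0.225 without young cartilage 1 and 0.294 without old cartilage 2, so it had no stable sign.

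In synovium the median distal share over the 2115 genes was 36.6%, 32.7%, 34.3%, 34.8% and 35.3% in the young libraries and 31.6%, 33.2%, 31.4%, 32.6% and 35.1% in the old. The group means were 34.7% ± 1.43 and 32.8% ± 1.5 (n = 5), a difference of -1.96 points that stayed between -2.55 and -1.5 when each library was left out in turn. The ages overlapped, and 3 of the 5 old libraries lay below the lowest young one. The proximal share went the other way, at 39.3% ± 0.786 in young and 40.9% ± 0.737 in old synovium. In the 1337 synovium genes with 2 sites it is the remainder of the distal share. In cartilage the proximal share was 45.8% ± 1.88 and 45.3% ± 1.45. The count-weighted mean distance of a gene's ends from its proximal site had a median over genes of 645 ± 20.9 nt in young and 622 ± 18.9 nt in old synovium, and 548 ± 20.5 and 549 ± 39.6 nt in cartilage. The proximal shares and distances draw on the same counts as the distal shares and are no separate evidence. These medians summarise genes that were chosen with earlier results of these data known and carry no test.

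The differently spaced genes of the same tables are given beside these values. Genes spanning up to 500 nt had median distal shares of 42.7% in young and 41.5% in old cartilage, and 51.1% and 53.6% in synovium. Genes spanning over 5000 nt had 17.4% and 12.3% in cartilage and 13.4% and 11.6% in synovium. The classes differ in sites per gene, with 2 sites in 98.1% of cartilage and 99.5% of synovium genes spanning up to 500 nt. Among 2-site genes, young and old cartilage had 43.0% and 41.7% up to 500 nt. The selected 2-site genes had 44.6% and 44.4%, and those over 5000 nt had 33.4% and 26.4%. In synovium the values in the same order were 51.3% and 53.7%, 46.1% and 44.3%, and 31.7% and 28.9%. No difference between these spacing classes was tested.

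Gene by gene, distal use was tested with limma on the log2 ratio of distal to other counts. With age, 0 of 1137 cartilage and 0 of 2115 synovium genes passed an adjusted p of 0.05, against 0% of all genes tested in either tissue. The lowest adjusted p among the selected genes was 0.735 in cartilage and 0.902 in synovium (limma, Benjamini-Hochberg). At an unadjusted p under 0.05 stood 34 cartilage genes with higher and 34 with lower distal use in old, 5.98% together against 5.66% of all genes tested (2.1% higher, 3.56% lower). In synovium 31 stood higher and 65 lower, 4.54% against 4.58% (1.27% higher, 3.31% lower). An edgeR test of the same counts also called 0 genes in each tissue. It put 33 and 77 of the selected genes at an unadjusted p under 0.05, and the share of all genes in that test is not given here. In limma the shares at an unadjusted p were near those of all genes. The median log2 change was -0.04 in cartilage against -0.18 over all genes tested, and -0.11 against -0.17 in synovium. The ratio was lower in old for 51.1% of the selected genes in cartilage and 58.9% in synovium, against 54.5% and 60.7% of all genes. Without old cartilage 2 the cartilage median of the selected genes was 0.01, so it had no stable direction.

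Per-gene distal shares at the 2 ages lay close to each other. Across genes, the mean shares in young and old had a Pearson r of 0.872 and a Spearman rho of 0.873 in cartilage (1137 genes) and 0.979 for both in synovium (2115 genes). Genes are not independent replicates, and they share libraries and depth. The median absolute difference was 6.78 points in cartilage and 2.77 in synovium. A difference over 20 points occurred in 176 cartilage genes (15.5%) and 34 synovium genes (1.61%), and the tables differ in depth and detection as given above. Of 846 cartilage genes with counts at kept sites in every library, 1 had a higher and 3 a lower distal share in all old than in all young libraries, 0.473% against 0.225% of all genes. In synovium these were 6 and 8 of 2108, 0.664% against 0.646%.

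**Figure D2:**
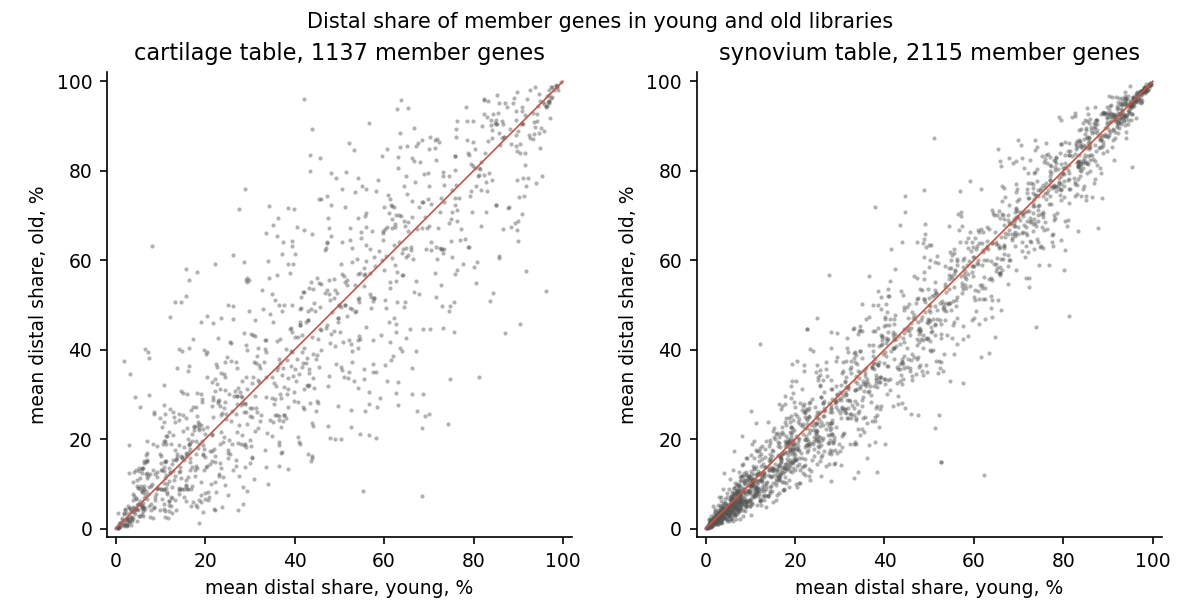
Mean distal share in old against young libraries (axes in % of counts at kept sites), 1 point per selected gene, for cartilage and synovium. Cartilage genes scatter widely about the diagonal, with 176 of 1137 over 20 points from it, and synovium genes lie closer, with 34 of 2115.

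The genes with the lowest p show what was seen at single loci, although none passed the adjusted threshold. In cartilage the lowest p was that of ENSECAG00000022350 (minus strand), with a proximal site at chr9:10422997-10423130 and a distal site at chr9:10422399-10422511. Its distal share was 82.2%, 100% and 100% in the lowest, median and highest young library and 29.5%, 52.7% and 81.4% in the old. The groups did not overlap, and the counts behind each value were few, at 18 to 140 in young and 23 to 156 in old libraries. In young libraries the distal site held 405 of 425 counts, so the proximal site was kept mainly through the old ones. Its selection thus leans on the group where it is high, and the lack of overlap is no separate evidence. The log2 change of the ratio was -5.40 with a standard error (SE) of 1.27 and a limma adjusted p of 0.735. The next lower gene, ENSECAG00000005086 on chromosome 1 (plus strand), has 3 sites over 2483 nt, the distal at chr1:172908145-172908436. It had distal shares of 75.5%, 96.9% and 100% in young and 19.3%, 57.5% and 82.3% in old cartilage, with overlap and a limma adjusted p of 0.804.

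Of the cartilage genes with higher distal use in old, ENSECAG00000015333 had 0 distal counts in 4 young libraries, which allows shares up to 3.13% to 7.89% there (counting error only). The other young libraries stood at 7.14% and 11.4%. Old cartilage 1, 4, 5 and 6 were at 11.7%, 100%, 10.6% and 16.2%, and old cartilage 2 and 3 had no counts at the kept sites of the gene. The limma adjusted p was 0.804, with the gene's ratio in the empty libraries set by the pseudocount of 0.5 alone. ENSECAG00000007228 behaved likewise, at 0% to 46.5% in young and 17.9% to 100% in the 5 old libraries with counts at its kept sites.

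In synovium the selected gene ENSECAG00000011303 (minus strand, distal site chr6:31991568-31991691, span 4895 nt) had distal shares of 36.4%, 27.3%, 25%, 40.0% and 60.9% in young and 73.0%, 73.3%, 78.9%, 70.8% and 63.6% in old libraries. The ages did not overlap, from 88 counts in all young and 169 in all old libraries, and the limma adjusted p was 0.902. ENSECAG00000013853 (minus strand, distal site chr7:64132138-64132357, span 508 nt) had 85.0%, 85.3%, 89.1%, 89.0% and 78.5% in young and 95.5%, 97.1%, 92.2%, 92.5% and 93.0% in old libraries. Here too every old value was above every young one, with a log2 change of 1.44 (SE 0.41) and a limma adjusted p of 0.902.

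On the lower side, ENSECAG00000009142 (minus strand, 3 sites, distal chr20:33928173-33928312) had distal shares of 55.9%, 100%, 31.2% and 62.2% in the young synovium libraries with counts and 0%, 5.26%, 18.4%, 20.0% and 16.4% in old. Young synovium 4 had no counts at the kept sites of this gene, and the 0% came from 8 counts, which allows up to 37.5%. ENSECAG00000016948 (minus strand, sites chr11:6261898-6262042 and chr11:6258466-6259351) had 10.1% ± 4.70 in young and 3.02% ± 1.40 in old. Its values of 17.3%, 7.95%, 5.09%, 8.13% and 11.8% in young were all above the 2.96%, 3.28%, 0.894%, 4.83% and 3.11% in old, with a limma adjusted p of 0.902.

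Use of each single site relative to the rest of its gene was tested with edgeR's diffSpliceDGE. With age, 0 of 2694 cartilage and 0 of 5331 synovium sites passed, against 0% of all sites tested, with lowest adjusted p values of 0.438 and 1.00. At an unadjusted p under 0.05 stood 3 cartilage sites (1 higher, 2 lower in old, 0.111% against 0.179% of all sites). Of all cartilage sites, 0.0358% were higher and 0.143% lower. In synovium there were 51 (12 higher, 39 lower, 0.957% against 1.38%), with 0.275% of all sites higher and 1.11% lower. These counts rested on single libraries. The synovium count was 24 without old synovium 1, 27 without young synovium 1, 28 without young synovium 5 and 80 without old synovium 2 (7 higher, 73 lower). The cartilage count was 9 without old cartilage 4, 8 without old cartilage 1, 6 without old cartilage 2, and 5 without old cartilage 3 or young cartilage 3. The limma-voom form of the test called 0 sites and put 107 cartilage and 189 synovium sites at an unadjusted p under 0.05. The directions were near even, at 56 higher and 51 lower and at 90 higher and 99 lower. The share of all sites in that form is not given here. The lowest p in cartilage was that of the middle site of ENSECAG00000032490 (chr10:16143612-16143726, minus strand). It held 17.5%, 52.6% and 66.7% of the gene's counts in the lowest, median and highest young library, and 1.37% (1 count) in old cartilage 1 and 0 in the other 5 old libraries. The ages did not overlap, the zeros allow shares up to 1.94% to 17.6%, and the adjusted p was 0.438. This is the 1 cartilage site that was kept through the young libraries alone. Its selection thus rests on the group where it is high, and the lack of overlap is no separate evidence. The distal site of ENSECAG00000022987 (chr12:30327997-30328105, plus strand) held 0%, 0%, 0%, 3.30%, 7.52% and 0% of the gene's counts in young libraries and 12.5%, 71.5%, 61.4%, 65.9%, 0% and 13.4% in old. With 16 of 576 kept counts in the young libraries, this site was kept mainly through the old ones, where it is high. The zeros allow shares up to 2.83% to 6.82%, the groups overlapped through old cartilage 5, and the adjusted p was 1.00. The proximal site of ENSECAG00000022483 (chr20:57719424-57719539, minus strand) held 3.17%, 6.66% and 7.24% (lowest, median, highest) in young and 0%, 1.09% and 3.34% in old, with overlap and an adjusted p of 1.00.

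The summed level of each gene was tested by age with edgeR's quasi-likelihood test. In cartilage 0 of 1137 selected genes passed an adjusted p of 0.05, against 0% of all genes, and in synovium 0 of 2115 against 0%. The lowest adjusted p was 1.00 in cartilage and 0.432 in synovium. At an unadjusted p under 0.05 stood 48 higher and 16 lower in old cartilage (5.63% against 3.09% of all genes, where 1.89% were higher and 1.2% lower). In old synovium there were 96 higher and 94 lower (8.98% against 6.91% of all genes, where 2.57% were higher and 4.34% lower). Single libraries moved that count and its balance. It was 95 without old synovium 1 (37 higher, 58 lower), 118 without young synovium 5 (94 higher, 24 lower) and 124 without young synovium 1 (94 higher, 30 lower), and 234 without old synovium 2 (192 higher, 42 lower). With DESeq2 size factors in place of trimmed mean of M-values (TMM) scaling, the synovium split was 155 higher and 53 lower. That scaling also moved the median log2 change of all synovium genes from -0.05 to 0.06, and that of the selected genes from 0.00 to 0.11, so the direction of the whole set depended on the scaling. DESeq2's own Wald test called 14 selected synovium genes (12 higher and 2 lower in old), against 0.334% of all genes tested. In cartilage it called 0 of the selected genes, against 0.0457% of all genes. At an unadjusted p under 0.05 in that test stood 77 selected genes, 6.77% against 4.34% of all genes.

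The synovium gene with the lowest p was ENSECAG00000009402 (minus strand, sites chr20:43606382-43606753 and chr20:43605964-43606170). Its level was 127, 107, 53.8, 54.6 and 96.1 CPM in young and 371, 196, 226, 173 and 431 CPM in old libraries. Every old value lay above every young one, with a log2 change of 1.67 (SE 0.32) and an edgeR adjusted p of 0.432. The call turned on the method, with an adjusted p of 4.37e-05 under DESeq2, 0.0111 in edgeR with no filter on low genes, and 0.0377 and 0.0455 without old synovium 2 or 4. ENSECAG00000003049 on chromosome 4 was at 196, 413, 204, 380 and 225 CPM in young and 2072, 1020, 816, 404 and 1296 CPM in old, with overlap between young synovium 2 and old synovium 4. Its edgeR adjusted p was 0.432 and its DESeq2 adjusted p 7.09e-05, and without old synovium 4 its edgeR adjusted p was 0.0455.

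Lower in old synovium with no overlap was ENSECAG00000016371, at 104, 78.6, 64.0, 65.6 and 70.2 CPM in young and 29.3, 32.7, 45, 39.3 and 47.3 CPM in old, with an adjusted p of 0.487 in edgeR and 0.0297 in DESeq2. ENSECAG00000010153 was at 81.0, 26.7, 19.7, 16.1 and 104 CPM in young and 3.39, 8.85, 14.8, 11.0 and 10.8 CPM in old, again with no overlap, and its adjusted p was 0.631 in edgeR and 0.0120 in DESeq2. In cartilage the gene with the lowest p, ENSECAG00000006470, was at 59.9, 78.9 and 135 CPM (lowest, median, highest) in young and 125, 168 and 216 CPM in old, and the groups overlapped. ENSECAG00000017369 was at 208, 255 and 321 CPM in young and 94.4, 125 and 211 CPM in old cartilage, also with overlap, and both had an edgeR adjusted p of 1.00.

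The other comparison was between the tissues. In all, 2587 genes met the rule in at least 1 table and 665 in both, 58.5% of those selected in cartilage and 31.4% of those selected in synovium. Of the other cartilage genes, 181 spanned over 5000 nt in synovium, 94 had 1 kept site there, 55 had none, 138 were not listed and 4 spanned at most 500 nt. Of the other synovium genes, 611 had 1 kept site in cartilage, 306 had none, 345 were not listed, 129 spanned over 5000 nt and 59 at most 500 nt. The synovium libraries were deeper, so membership in 1 table alone does not show that the other tissue lacks the end.

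Sites were called separately in each table, and the same end was listed with different bounds. Kept sites that overlapped were therefore joined into shared regions and their counts summed, which gave 627 genes with at least 2 shared regions out of the 665. Sites of these regions had a median length of 126 nt in cartilage and 188 nt in synovium, and their 3′ ends lay a median of 7 nt apart, with 55.7% within 10 nt. The most distal region was the same in both tables for 543 of the 665 genes (81.7%). Tissue and table are the same split, so depth, detection and the calling of sites cannot be told apart from tissue.

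Distal shares were similar in order across genes and lower in median in synovium. Across the 627 genes the mean distal shares of the tissues had a Pearson r of 0.915 and a Spearman rho of 0.910, as a description over genes that share libraries. The median distal share per library was 38.3% to 44.2% in cartilage (40.9% ± 1.93, SD, n = 12) and 32.6% to 39.5% in synovium (36.5% ± 2.05, n = 10), and the tissues overlapped. Over all genes with shared regions it was 29.8% ± 2.49 and 24.5% ± 2.87. The median absolute difference per gene was 6.81 points, and 69 genes (11.0%) differed by more than 20 points.

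**Figure D3:**
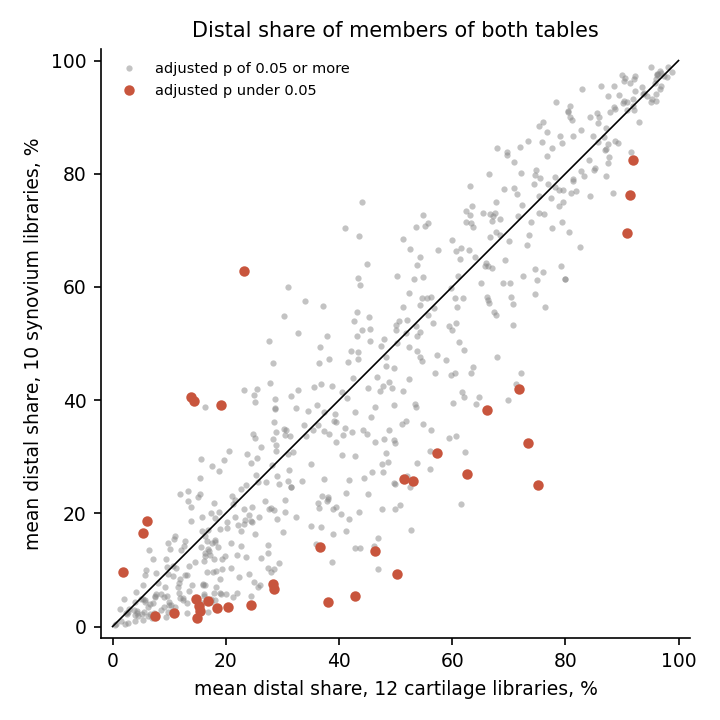
Mean distal share in synovium (y axis) against cartilage (x axis), in % of counts at shared regions, 1 point per gene selected in both tables, with the 35 genes past the adjusted threshold marked. Most of the marked genes, 28 of 35, lie on the side of lower distal use in synovium.

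In a limma fit over all 22 libraries, 35 of the 627 genes passed an adjusted p of 0.05, with 7 higher and 28 lower in synovium. That is 5.58% against 5.69% of all 1879 genes tested, a share near the background. Over all genes 22 were higher (1.17%) and 85 lower (4.52%). The median log2 change of the ratio was -0.27 for the selected genes and -0.32 for all. Genes called higher differed by 7.75 to 39.6 points (median 20.1) and genes called lower by 5.67 to 50.1 points in the other direction (median difference -21.7). The number of selected genes called depended on the fit, with 90 at a pseudocount of 5, 10 in the young libraries alone and 4 in the old alone. A fit with the replicate number as a block called fewer than the 35, as given at the end. The share of all genes called in these alternative fits is not given here, so their counts are not set against a background. Distal here means the most distal shared region, and in 8 of the 35 a further kept site lay beyond it in at least 1 table (98 of the 627). Of the 35, 15 had a cartilage library at 0 for the distal or the other counts, and 9 had distal 3′ ends more than 100 nt apart in the 2 tables. With distal and other regions limited to those whose 3′ ends lay within 25 nt, 8 of 317 genes passed (1 higher, 7 lower), 2.52% against 3.99% of all genes in that fit, and 6 of the 8 were among the 35. In that subset the per-library medians were 45.3% ± 3.41 in cartilage and 40.5% ± 2.24 in synovium. Shares without any overlap between tissues occurred in 1 gene higher and 6 lower in synovium of 473 genes with counts in every library, 1.48% against 1.43% of all genes.

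The gene with the lowest p among those lower in synovium, ENSECAG00000015069, shows how the site bounds bear on a value. Its distal share was 24.4%, 44.7% and 63.4% (lowest, median, highest) in young and 15.8%, 36.1% and 48.9% in old cartilage. In synovium it was 6.89%, 3.98%, 4.09%, 3.01% and 7.16% in young and 3.46%, 3.75%, 2.62%, 3.79% and 4.91% in old libraries. All cartilage values were above all synovium values, with a log2 change of -3.76 (SE 0.41) and a limma adjusted p of 1.26e-06. The shared distal region, however, joins a cartilage site at chr16:12642362-12643438 with a synovium site at chr16:12641930-12642715, whose 3′ ends lie 723 nt apart. The most distal cartilage site, chr16:12644398-12644668, had no kept counterpart in synovium.

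In ENSECAG00000014260 (minus strand) the distal ends matched within 8 nt, at chr24:20590972-20591514 in cartilage and chr24:20590964-20591846 in synovium, and the other shared region joins chr24:20592713-20593189 with chr24:20592194-20593193. Another kept synovium site, chr24:20593380-20593539, is more proximal and had no kept counterpart in cartilage, so it does not enter the share. The distal share was 16.8%, 20.8% and 38.0% in young and 8.58%, 12.4% and 23.4% in old cartilage. In synovium it was 7.55%, 3.28%, 4.25%, 1.19% and 4.18% in young and 0.923%, 3.17%, 0.860%, 4.64% and 3.54% in old libraries. All cartilage values were again above all synovium values. The log2 change was -2.90 (SE 0.41) with a limma adjusted p of 7.05e-05, and 0.0696 with the old libraries alone.

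Higher in synovium was ENSECAG00000021160 (minus strand), whose sites matched closely. They were chr11:24988791-24988916 and chr11:24987374-24987572 in cartilage, and chr11:24988760-24988908 and chr11:24987374-24987570 in synovium. Its distal share was 4.55%, 10.5% and 27.0% in young and 5.16%, 11.3% and 41.9% in old cartilage. The synovium libraries had 28.2%, 48.7%, 40.4%, 31.4% and 23.8% in young and 50.1%, 42.8%, 33.7%, 51.1% and 49.0% in old. The tissues overlapped. The log2 change was 2.27 (SE 0.52) with a limma adjusted p of 0.00902. The call was lost with 1 age alone (adjusted p 0.208 in young and 0.177 in old). It was also lost with the replicate number as a block, as given at the end.

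ENSECAG00000012980 (plus strand) had its most distal shared region at chr2:27557430-27557726 in cartilage and chr2:27557359-27557775 in synovium. The most distal kept synovium site, chr2:27559125-27559234, had no kept counterpart in cartilage and does not enter the share. Its distal share was 0%, 0.747% and 3.33% in young and 0%, 2.28% and 3.97% in old cartilage. The zeros, young and old cartilage 2, allow up to 0.144% and 0.110%. In synovium the share was 23.7%, 7.11%, 7.47%, 8.00% and 11.1% in young and 4.74%, 6.22%, 9.57%, 7.98% and 9.70% in old libraries, with no overlap. The log2 change was 3.49 (SE 0.86) with a limma adjusted p of 0.0145, and the call was lost with 1 age alone (0.0966 in young, 0.362 in old).

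A further pair was chosen after the values were seen, as the genes with the lowest p in the fit with ends within 25 nt among the 6 that passed both fits. Another of the 6, ENSECAG00000008511, had a lower p over all shared regions (adjusted p 0.000174, and 0.0161 with ends within 25 nt), with distal shares of 15.3% ± 4.75 in cartilage (n = 12) and 3.66% ± 1.76 in synovium (n = 10) and no overlap. Its most distal kept synovium site, with 51.1% of the gene's kept counts in young and 52.3% in old, had no kept counterpart in cartilage and does not enter those shares. ENSECAG00000021686 (plus strand) has a proximal site at chr1:159779685-159779832 and a distal site at chr1:159781010-159782896 in cartilage, against chr1:159779679-159779843 and chr1:159780814-159782900 in synovium. Cartilage had distal shares of 6.54%, 12.5% and 22.8% in young and 5.12%, 14.3% and 30.6% in old cartilage. In synovium it was 4.05%, 4.01%, 5.24%, 1.51% and 1.91% in young and 0.338%, 2.06%, 0.625%, 3.10% and 3.94% in old libraries. The groups overlapped by 1 young synovium value just above the lowest old cartilage value, and the limma adjusted p was 0.000736 over all shared regions and 0.00203 with ends within 25 nt.

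The short-spaced ENSECAG00000003655 (plus strand) has sites at chr14:8771241-8771646 and chr14:8771735-8771936 in cartilage and chr14:8771240-8771646 and chr14:8771738-8771936 in synovium. Cartilage had distal shares of 2.97%, 11.5% and 27.1% in young and 3.19%, 8.97% and 18.0% in old cartilage. In synovium it was 0.856%, 2.73%, 5.57%, 4.10% and 2.14% in young and 0.683%, 1.03%, 0.662%, 2.01% and 3.45% in old libraries. The groups overlapped, with a limma adjusted p of 0.00566 over all shared regions and 0.0102 with ends within 25 nt.

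**Figure D4:**
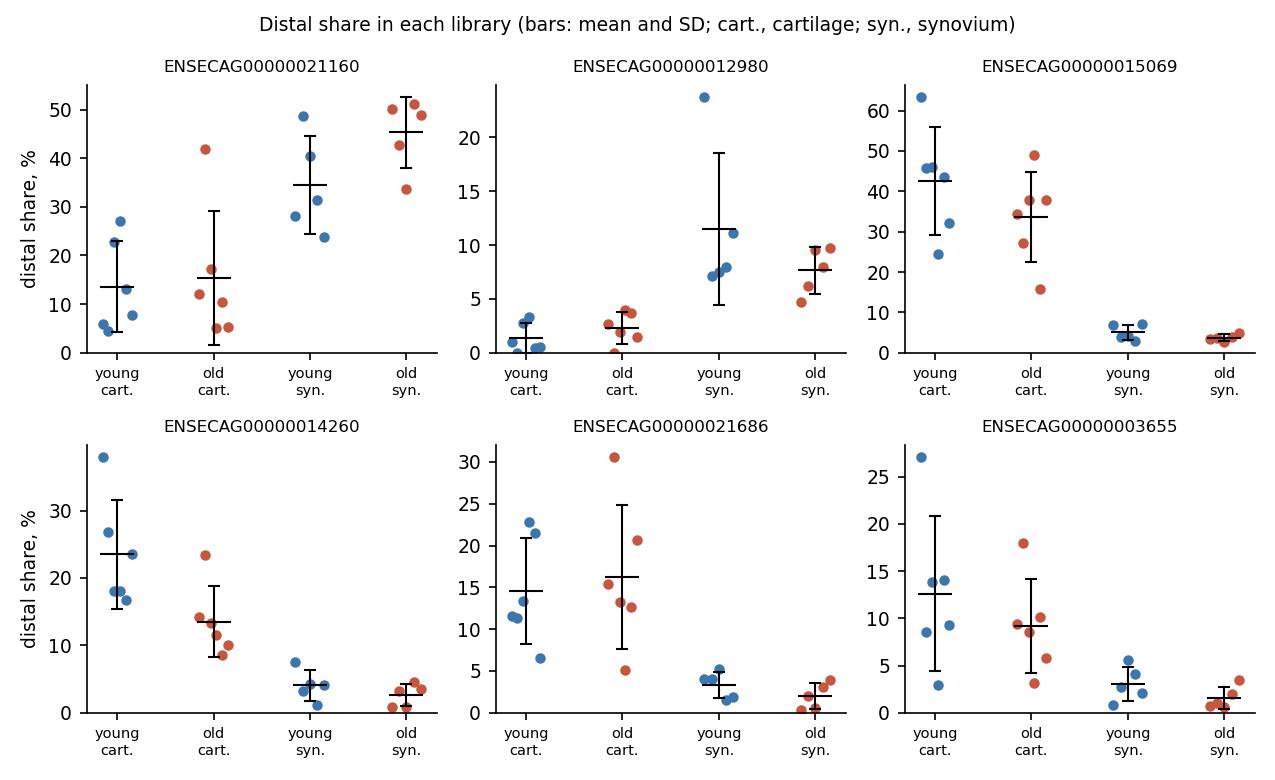
Distal share (y axis, % of counts at shared regions) in each library by tissue and age (x axis) for 6 genes past the adjusted threshold between tissues. ENSECAG00000015069, ENSECAG00000014260, ENSECAG00000021686 and ENSECAG00000003655 are lower in synovium, ENSECAG00000021160 and ENSECAG00000012980 higher.

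Whether age acted differently on distal use in the tissues was tested as the interaction of age and tissue, a test added after the data were seen. It called 0 of 627 selected genes, against 0% of all 1879. At an unadjusted p under 0.05 stood 13 higher and 18 lower, 4.94% against 4.58% of all genes. The lowest adjusted p was 0.411, for ENSECAG00000022350. Its distal share, 96.1% ± 7.15 in young and 53.1% ± 17.4 in old cartilage, was 78.3%, 80.4%, 77.8%, 83.3% and 60.3% in young and 91.6%, 84.2%, 82.1%, 82.3% and 77.3% in old synovium. The young and old values overlapped in synovium and not in cartilage, and the difference between the tissues did not pass the test (log2 6.07, SE 1.41). The proximal cartilage site of this gene was kept mainly through the old libraries, so the lack of overlap there is no separate evidence.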

How the data were processed

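Snap-frozen tissue was profiled by QuantSeq-Reverse, which reads RNA 3′ ends, per the labels' protocols. The authors deposited 1 table per tissue of raw counts per site with gene, coordinates and strand, per the file headers. The build is EquCab3.0, per the submitters' processing notes. Aligner, counting tool, site caller, strand use and duplicate removal are not given in the sources used here, so values of sites where genes overlap, run antisense or have a near-identical copy are uncertain. No count was left without a sample, with 0 unused sample columns.

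The selected genes, lists and tests were chosen with earlier results of these data known. Gene sums were tested with edgeR 4.0.16 (TMM, filterByExpr with minimum count 10 and total 15, quasi-likelihood), site use with diffSpliceDGE, and distal use with limma 3.58.1 (trend) on log2((distal + 0.5)/(other + 0.5)), all fitted over every gene of a table, with Benjamini-Hochberg adjustment at 0.05. CPM are TMM-scaled. Fits used R 4.3.3, with DESeq2 1.42.0 as an alternative. Other work used Python 3.11.15, pandas 2.3.3, NumPy 2.4.6, SciPy 1.17.1 and Matplotlib 3.10.9. The scripts were tested on simulated data. All 1137 and 2115 genes entered the age tests. Named genes are, per test, up to 2 in each direction by p, plus the 2 with most counts per tissue. Shared regions replaced a 1-to-1 pairing of sites after site widths were seen to differ. Zero-count limits use 3 counts and cover counting error only. Lists of cell type markers, polyadenylation factors and matrix genes defined by symbol could not be read, since the identifiers are not paired with symbols in the tables used here.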

Additional observations from a re-analysis of the deposited data

Results flagged for a closer look

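In 105 groups of 5 or 6 libraries, 12 values stood far from the rest of their group by Dixon's criterion, where chance gives about 5.25 for independent groups. Some groups hold linked measures or the same values, so these counts are no test of an excess. Young cartilage 1 had a median proximal share of 42.1%, below the other young cartilage libraries, with the strongest site distal in 42.6% of the genes and proximal in 46.1%. Young synovium 2 had counts at 97.1% of the sites, fewer than the other young synovium libraries.

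Single genes supplied the other values. The internal site of ENSECAG00000032490 had 1.37% in old cartilage 1, from 1 count, where the other old libraries had 0. The proximal site of ENSECAG00000022483 had 3.17% in young cartilage 5. The distal share of ENSECAG00000022350 was 82.2% in young cartilage 6, seen in both tests that use that group, and 60.3% in young synovium 5. That of ENSECAG00000021160 was 41.9% in old cartilage 2, that of ENSECAG00000012980 was 23.7% in young synovium 1, and that of ENSECAG00000023998 was 100% in old cartilage 2.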

How the results depend on the processing

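The count of 0 genes or sites held in cartilage, and for site use and distal use by age in synovium, under each scaling, filter, test, pseudocount and left-out library tried. Synovium gene abundance gave 1 call with no filter on low counts, 14 with DESeq2's Wald test, and 0 to 3 when each library was left out in turn (1 without old synovium 2, 3 without old synovium 4). For distal use by tissue, 35 calls became 90 with a pseudocount of 5 (19 higher, 71 lower), 10 with young libraries alone, 4 with old libraries alone, 8 with ends within 25 nt, and 27 to 40 with each library left out. The 1-to-1 pairing of sites called 39 of 628 genes, 32 of them also among the 35, and without ENSECAG00000012980 (adjusted p 0.0691). A variance per tissue called 29, of which 23 were shared. All these are counts of selected genes, and the share of all genes in each fit is not given here. The cause of these moves was not tested. A match by identical start and end was not run, since it left 9 genes. No direction of a named gene reversed.

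Titles share replicate numbers between groups, and the labels do not state whether these mark the same animals. Same-numbered libraries had correlations of deviations from -0.103 to 0.346 over all comparisons, and from -0.0265 to 0.0905 between cartilage and synovium. Between old cartilage and synovium the own number was the best match for replicates 2, 3 and 4 and not for 1 and 5. In young libraries it was the best match only for 2. These values cannot settle whether the numbers pair the samples, and the main fits treat the samples as unpaired. With the replicate block, distal use by tissue gave 21 calls (2 higher, 19 lower) and lost ENSECAG00000021160 (adjusted p 0.0757), and the age tests stayed at 0. Low counts limit cartilage most, where 30.8% of the sites had at least 10 counts in every library against 63.4% in synovium.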
